A study of Homo sapiens with 18 samples.

Results

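The kinesins and the centromere proteins were followed as one group of genes through 6 groups of melanoma cells. Members were all genes whose single current symbol is KIF followed by a digit or CENP followed by a letter, each represented by the probe set with the highest mean over all arrays. This gave 45 of the 11232 genes with a single symbol, 26 of them KIF genes and 19 CENP genes. All 45 passed the filter on low values, and 7 of them (CENPI, CENPO, CENPV, KIF21B, KIF26B, KIF5C and KIF6) had a mean log2 level under 4 in at least 1 group. CENPO and KIF26B reached log2 4 on C32 arrays alone, CENPV and KIF6 on A375M2 arrays alone, and KIF21B and KIF5C on A375M2 shRNA arrays alone. These 6 passed the filter only through the groups where they were high. By known role, 11 were mitotic kinesins, 11 transport kinesins, 4 other kinesins, 14 inner kinetochore proteins and 2 outer kinetochore proteins. KIF2A, which acts at spindle poles and in neurites, was placed among the other kinesins, so the counts of mitotic kinesins leave it out. CENPV, a protein of centromeres and microtubules, stood alone, and CENPBD1P and CENPBD2P carry pseudogene names.

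Total RNA from 2 human melanoma lines, A375M2 and C32, was hybridised to Affymetrix 3' arrays, with 3 arrays in each group. All cells carried a lentiviral vector. The A375M2 groups were GFP (a vector expressing GFP and no gene of interest), PMEL (full-length PMEL, a melanosome matrix protein, behind a CMV promoter with an IRES-eGFP element), shFHL2 (a pool of 3 shRNA constructs against FHL2, a LIM-domain scaffold protein) and shNFYA (shRNA against NFYA, which contacts CCAAT boxes as part of the trimeric factor NF-Y). The C32 groups were GFP and shFHL2. PMEL and empty vectors were selected with blasticidin and shRNA vectors with puromycin, and the brightest GFP cells were sorted and kept under selection. The A375M2 GFP, PMEL and shFHL2 cells were kept in selective medium for 15 days. No such time was found for A375M2 shNFYA, so its selection may have differed in length. The labels describe an empty eGFP vector and CopGFP particles as controls without saying which the GFP arrays hold, none of the labels names a non-targeting shRNA, and the NFYA construct and the C32 culture are not described in the sources used here. Cells labelled A375M2 by source also carry the cell line tag A375. The A375M2 samples came from 3 separate experiments. For C32 this is not said, and spread among its arrays may be technical. All p-values come from one fit that pools the spread of the 6 groups, so those for C32 rest largely on spread among A375M2 arrays.

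Kinesins are motors that step along microtubules. The mitotic kinesins build the bipolar spindle, move chromosomes and complete cytokinesis, and their messages, like those of many kinetochore genes, rise in late cell cycle phases in dividing cells. The inner kinetochore sits on centromeric chromatin marked by the histone variant CENP-A throughout the cycle, and the outer kinetochore, to which the motor CENP-E and the large coiled-coil protein CENP-F belong, assembles at mitosis. Transport kinesins carry mitochondria, endosomes and, in pigment cells, melanosome cargo through the interphase cytoplasm.

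Promoters of late cell cycle genes often carry CCAAT boxes, which NF-Y binds, near a cell cycle genes homology region, TTTGAA or its variant TTTAAA. RefSeq promoters (build GRCh38.p14) were matched by symbol for 38 of the 45 members, in 44 windows of 300 bases (250 before and 50 after each gene start). No entry was matched for CENPBD1P, CENPBD2P, CENPH, CENPL, CENPM, KIF21B or KIF26B. The 120 bases before the start are printed 5′ to 3′ for 8 members on which the results turn. KIF20A, KIF4A, KIF18A and KIF11 are mitotic kinesins with a CCAAT box and one of the other motifs. CENPF has 3 CCAAT boxes. CENPE and KIF15 have none, and KIF5B is a transport kinesin with one. Capitals mark CCAAT or ATTGG for the first motif, and TTTGAA or TTCAAA for the second, by strand. They also mark TTTAAA, which reads the same on both strands.
KIF20A (chr5:138178992-138179111, plus strand): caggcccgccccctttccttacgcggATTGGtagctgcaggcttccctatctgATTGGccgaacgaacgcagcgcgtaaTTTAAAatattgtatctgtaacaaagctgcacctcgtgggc
KIF4A (chrX:70289984-70290103, plus strand): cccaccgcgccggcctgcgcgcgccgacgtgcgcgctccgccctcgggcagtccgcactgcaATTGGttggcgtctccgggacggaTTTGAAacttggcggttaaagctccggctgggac
KIF18A (chr11:28108157-28108276, minus strand): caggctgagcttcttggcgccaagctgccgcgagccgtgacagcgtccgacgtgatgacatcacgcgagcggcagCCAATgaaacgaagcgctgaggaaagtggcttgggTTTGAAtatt
KIF11 (chr10:92593010-92593129, plus strand): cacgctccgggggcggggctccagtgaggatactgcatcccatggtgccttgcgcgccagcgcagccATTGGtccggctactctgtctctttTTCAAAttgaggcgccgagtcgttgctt
CENPF (chr1:214603075-214603194, plus strand): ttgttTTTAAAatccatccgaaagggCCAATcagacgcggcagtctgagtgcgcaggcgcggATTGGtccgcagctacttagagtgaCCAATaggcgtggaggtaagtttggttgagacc
CENPE (chr4:103198344-103198463, minus strand): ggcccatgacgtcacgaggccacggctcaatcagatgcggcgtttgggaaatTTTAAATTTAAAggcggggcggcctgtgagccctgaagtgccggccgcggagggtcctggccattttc
KIF15 (chr3:44761674-44761793, plus strand): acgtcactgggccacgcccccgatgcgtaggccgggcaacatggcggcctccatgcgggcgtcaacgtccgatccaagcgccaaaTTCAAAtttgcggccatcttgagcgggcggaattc
KIF5B (chr10:32056426-32056545, minus strand): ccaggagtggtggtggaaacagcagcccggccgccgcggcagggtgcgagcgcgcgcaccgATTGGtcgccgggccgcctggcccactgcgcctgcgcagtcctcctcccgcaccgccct

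CCAAT was found on either strand in 24 of the 44 member windows (54.5%), against 34.6% of all 35116 RefSeq windows of this length. Among the 12 windows of the 11 mitotic kinesins, 9 (75.0%) held CCAAT, 8 (66.7%) TTTGAA and 7 (58.3%) both, where 15.2% of all windows held TTTGAA and 5.9% both. The inner kinetochore genes had CCAAT in 8 of 11 windows (72.7%). The transport kinesins had it in 5 of 13 (38.5%), with TTTGAA in 1 (7.69%). TTTAAA was found in 8 member windows (18.2%) and in 12.2% of all windows. These are matches of letters and not measured binding. Positions counted back from the gene start lie close together in the printed sequences: KIF20A has CCAAT at -94 and -67 and TTTAAA at -41, and KIF4A has CCAAT at -58 and TTTGAA at -34.

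Values are normalised log2 levels, so a difference of 1 is 2-fold, and a gene's level is compared with its own level in other groups only. A gene was called when its adjusted p in limma was under 0.05. In C32 GFP, replicate 3 equalled the average of the other replicates almost exactly (SD of the difference 0.00785 over 18793 probe sets, against 0.122 to 0.184 for the other arrays), so it was left out and C32 GFP has n = 2. Replicate 3 of A375M2 GFP and replicate 3 of A375M2 PMEL deviated from their groups in opposite directions with r = -1.0 across 10940 genes, which are not independent replicates. Without these 2 arrays, 40 members were called in A375M2 shFHL2 against GFP, 5 in PMEL against GFP, 39 in shNFYA against GFP, 34 in shFHL2 against shNFYA, 36 in C32 shFHL2 against GFP, 39 between the GFP lines and 39 in the difference between lines. Identical low values were shared by A375M2 GFP replicate 1 with GFP replicate 2 (934) and with PMEL replicate 1 (515) but with no shRNA array (0), so in A375M2 the array set and the shRNA vector cannot be told apart in comparisons with GFP, nor in the difference between lines, which uses one of them. C32 GFP replicate 1 shared 372 such values with each C32 shFHL2 array and 0 with A375M2 GFP replicate 1, so between the GFP cells of the lines the array set and the line cannot be told apart. The spike-in RNA control probe sets averaged 9.37 in C32 GFP and 5.96 in C32 shFHL2. In A375M2 they lay between 6.57 and 7.15. The 18S control probe sets averaged 12.52 in A375M2 GFP, 11.08 in PMEL, 14.18 in shFHL2 and 14.19 in shNFYA, and 13.28 and 13.94 in C32 GFP and shFHL2. The 3' actin control probe set exceeded the 5' one, a gap read as a sign of RNA integrity, by 0.61 in A375M2 GFP, 0.74 in PMEL, 1.06 in shFHL2 and 1.19 in shNFYA, and by 1.08 and 0.87 in C32 GFP and shFHL2. These controls moved with the groups, and whether they bear on any member was not tested.

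The targeted genes followed the labels. FHL2 stood at 11.27, 11.17 and 11.18 in A375M2 GFP and at 7.01, 7.26 and 7.25 in shFHL2, a fall of 4.04 (limma adjusted p = 1.62e-14). In C32 it went from 11.12 and 11.03 to 6.10, 6.10 and 5.30 and fell by 5.24 (2.45e-14). NFYA fell by 2.06 in A375M2 shNFYA, from a mean of 9.59 to 7.52. It also fell by 0.73 in A375M2 shFHL2 (1.04e-06), while in C32 shFHL2 it differed by -0.12 (0.336). PMEL rose by 3.38 in the PMEL group. Of the melanocyte lineage markers SOX10 and MITF stood at 12.76 and 14.24 in A375M2 GFP and at 12.88 and 14.96 in C32 GFP. MLANA was under 4 on every A375M2 array and averaged 14 in C32 GFP. All 8 lineage markers measured were called lower with FHL2 shRNA in A375M2, 7 with NFYA shRNA and 7 with FHL2 shRNA in C32. MITF fell by 4.18, 5.28 and 0.76 in that order, and TYRP1 fell by 5.48, 4.63 and 6.62. Both A375M2 counts include MLANA, at -0.20 in each, though its levels there, all under 4, do not show a fall. The mean of the list was 8.73 to 8.78 in A375M2 GFP, 5.97 to 6.03 in shFHL2 and 5.70 to 5.88 in shNFYA, and 11.35 to 11.43 in C32 GFP and 9.42 to 9.46 in shFHL2. Their part in the members' differences was not tested.

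In A375M2 cells with FHL2 shRNA, the outer kinetochore genes and most mitotic and transport kinesins were lower than in GFP cells, while the inner kinetochore genes moved both ways. KIF20A showed the largest fall, 5.74-fold, and CENPF fell 4.03-fold. CENPK and CENPQ rose 3.02-fold and 2.53-fold. Of the 45 members, 42 were called (93.3%), 15 higher and 27 lower, where 85.4% of all 10940 genes tested were called, 41.1% higher and 44.3% lower. The median difference was -0.31 over the members and -0.04 over all genes. At 2-fold or more, 12 members were called, 5 higher and 7 lower, against 31.4% of all genes. KIF21B and KIF5C, which reached log2 4 on A375M2 shRNA arrays alone, are among those higher. In bulk RNA, fewer cells in mitosis and less RNA per cell cannot be told apart, here and in every comparison.

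Among the mitotic kinesins, 7 of 11 fell, 3 rose and 1 was not called, with a median of -0.34. KIF20A, which carries the chromosomal passenger complex to the central spindle, stood at 10.14, 10.04 and 10.00 in GFP and at 7.60, 7.45 and 7.57 in shFHL2. The groups did not overlap, and the difference was -2.52 (SE 0.106, limma adjusted p = 1.76e-13). KIF4A, a chromosome-bound motor that sets the length of the spindle midzone, was at 8.59, 8.38 and 8.45 against 7.55, 7.48 and 7.45, and fell by 0.97 (SE 0.0624, 7.48e-11). KIF2C, the depolymerase that corrects wrong kinetochore attachments, was at 9.83, 9.81 and 9.92 in GFP and at 9.12, 9.16 and 9.12 in shFHL2, without overlap, and its difference was -0.72 (SE 0.0687, 2.03e-08). KIF22, a chromokinesin that pushes chromosome arms outward, fell by 0.82. KIF15, which can keep spindles bipolar in place of KIF11, fell by 0.50. Smaller falls were called for KIF14 (-0.34), which acts in cytokinesis, and for KIF23 (-0.30), the motor of the centralspindlin complex. KIF20B, KIF18B and KIF18A were higher by 0.44, 0.41 and 0.27. KIF11, which slides antiparallel microtubules apart to form the bipolar spindle, had overlapping arrays and a difference of 0.12 (SE 0.0792, adjusted p = 0.182). With each array centred on its median, which moved the median of all genes from -0.04 to 0.06, KIF11 was called at 0.21 (adjusted p = 0.0184), as it was at 0.19 without GFP replicate 2 (0.0331) or shFHL2 replicate 1 (0.0457).

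**Figure D1:**
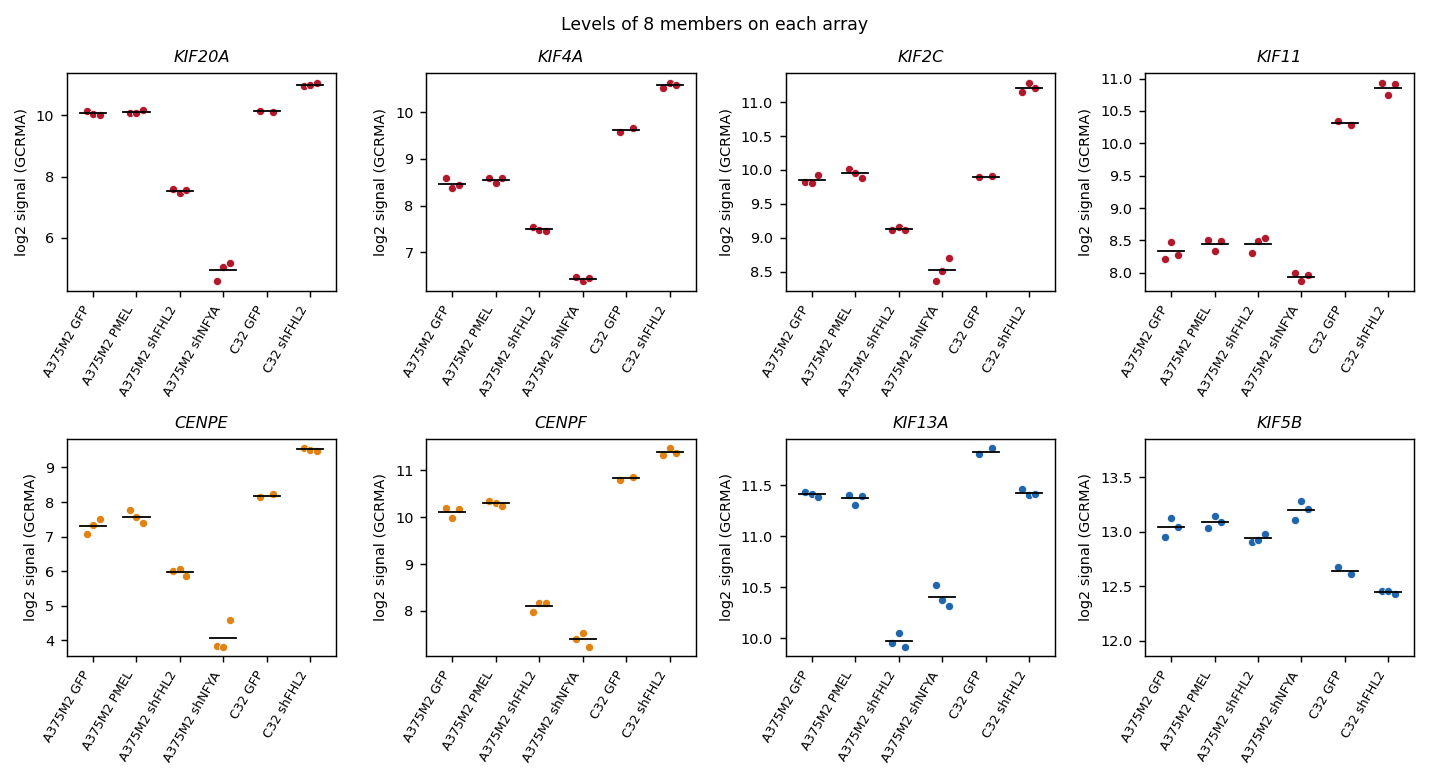
Normalised log2 level of 8 members in the 6 groups, each dot an array and each line a group mean. The vertical axis is log2 signal and differs between panels. KIF20A drops from about the same level in A375M2 GFP and PMEL to 7.45 to 7.60 in shFHL2 and 4.58 to 5.19 in shNFYA, while C32 shFHL2 holds its highest values, 10.96 to 11.05.

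At the outer kinetochore CENPF stood at 10.19, 9.98 and 10.17 in GFP and at 7.97, 8.18 and 8.16 in shFHL2 (difference -2.01, SE 0.0765, limma adjusted p = 4.16e-14). CENPE, the kinetochore motor that brings chromosomes to the spindle equator, was at 7.07, 7.33 and 7.50 against 6.0, 6.07 and 5.85 (difference -1.33, SE 0.162, 5.76e-07). Neither gene's arrays overlapped between the groups. A second probe set for CENPF fell less, by 0.85 (0.000523).

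Among the 14 inner kinetochore genes, 7 rose, 5 fell and 2 were not called, with a median of 0.16. The rises included CENPK (1.60, limma adjusted p = 1.44e-10), a member of the CENP-HIKM complex, and CENPQ (1.34, 4.6e-09) of the CENP-OPQUR complex. CENPW, a histone-fold partner in the CENP-TWSX complex, rose by 0.92, and CENPC, the scaffold between CENP-A chromatin and the outer kinetochore, by 0.85. CENPB, which binds a short box in alpha satellite DNA, fell by 0.87, CENPN, which binds CENP-A nucleosomes, by 0.64 and CENPX by 0.60. The probe sets of CENPN went both ways: the 2 others rose by 0.64 and 0.55. CENPA itself was at 5.86, 5.88 and 5.87 in GFP and at 5.49, 5.36 and 5.56 in shFHL2. Its arrays did not overlap, but the difference of -0.40 (SE 0.201) was not called (adjusted p = 0.0757). Leaving out C32 GFP replicate 1, C32 GFP replicate 2 or A375M2 shNFYA replicate 1 brought the adjusted p under the threshold (0.03, 0.0299 and 0.0262).

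Of the 11 transport kinesins, 8 fell and 3 rose, KIF21B and KIF5C among those that rose. KIF13A, an endosomal motor that delivers cargo to maturing melanosomes, stood at 11.43, 11.41 and 11.38 in GFP and at 9.95, 10.05 and 9.92 in shFHL2. The difference was -1.44 (SE 0.0469, limma adjusted p = 4.65e-15), with no overlap. KIF16B, an early endosome motor, fell by 0.72 on the probe set with the highest mean, but its other probe set rose by 1.49, and KIF1C had probe sets at -0.41 and 1.94. KIF21A fell by 0.50, and the kinesin-2 subunits KIF3A, KIF3B and KIF3C fell by 0.48, 0.36 and 0.29. KIF1B, a carrier of mitochondria and synaptic vesicle precursors, rose by 0.56 (9.68e-10). KIF5B, the widely expressed conventional kinesin heavy chain, fell by 0.11 (0.0438) with overlapping arrays, and differed by 0.14 on its probe set with the largest variance. That call was lost in 9 of the 17 fits that left out 1 array, with the smallest difference without GFP replicate 2 (-0.06, adjusted p = 0.231), and without the replicate 3 arrays of GFP and PMEL (-0.10, 0.0938).

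KIF21B, which limits microtubule growth in neurons and lymphocytes, was at 2.21 on all 3 GFP arrays and at 5.27, 5.27 and 4.87 in shFHL2. The neuronal heavy chain KIF5C was likewise at 2.21 in GFP, and at 5.29, 3.31 and 5.28 in shFHL2. With values under 4 set to 4 the differences were 1.14 and 0.86 in place of 2.93 and 2.42. Among the remaining kinesins, KIF2A, a depolymerase of spindle poles and neurites, rose by 1.21 (limma adjusted p = 4.45e-15). KIF6 fell by 1.55, KIF9 by 0.46 and KIF26B by 1.43, though KIF26B lay under 4 in both groups and had a difference of 0.00 with values under 4 set to 4. CENPV fell from 8.83, 8.67 and 8.65 to 6.35, 6.45 and 6.13, a difference of -2.40 (SE 0.0974, 1.04e-13). CENPBD1P differed by 0.38 and CENPBD2P by -0.31, the latter with probe sets called in both directions.

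Genes that work with the members were read from lists grouped by function. In the chromosomal passenger complex, which KIF20A carries, 3 of 4 genes fell and 0 rose, with AURKB, its kinase, lower by 1.46 and BIRC5, its targeting subunit, by 1.08. In the KMN network, the microtubule-binding core of the outer kinetochore, 5 of 10 fell and 4 rose. SPC25 fell by 2.65 and MIS12 rose by 1.23. Of 15 spindle and checkpoint genes, 8 fell and 7 rose, TPX2 by -1.82 and NUSAP1 by -1.58. Among 5 genes of CENP-A deposition, 2 fell and 3 rose, with the chaperone HJURP lower by 1.62. For the transport side, 5 of 8 kinesin cargo adaptors fell, TRAK1, a mitochondrial adaptor, by 1.29, and 5 of 12 dynein and dynactin genes fell while 4 rose. KIFC1, a minus-end motor of the spindle, fell by 1.37.

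Markers of cycling cells did not move one way. The proliferation list holds 10 genes, mostly of the G1/S phases: MKI67, PCNA, CCNE2, CDC6 and MCM2 to MCM7. It does not stand for mitosis. Of these genes, 7 rose and 3 fell, with MKI67 lower by 0.97 and CDC6 higher by 2.12. The mean of this list was 9.30 to 9.37 over the GFP arrays and 9.70 to 9.75 in shFHL2. Markers of other cell types also differed: LYZ, a leukocyte gene, rose by 5.70 to a mean of 9.45 while PTPRC stayed under 4. The list mean of 3 epithelial markers was 5.74 to 5.80 in GFP and 6.77 to 6.85 in shFHL2, with KRT14 under 4. The list mean of 6 fibroblast genes was 6.82 to 6.87 in GFP and 5.03 to 5.07 in shFHL2, with COL1A2 and DCN under 4 in both. Their part in the members' differences was not tested.

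In A375M2 cells with NFYA shRNA 7 of 11 mitotic kinesins and both outer kinetochore genes were lower than in GFP cells, and 5 mitotic kinesins fell 2-fold or more. KIF20A fell 34.8-fold, CENPE 9.3-fold, CENPF 6.58-fold, KIF4A 4.11-fold and KIF15 4-fold. Transport kinesins were mostly higher, KIF21B and KIF5C among them, and CENPM rose 3.47-fold. Of the 45 members, 39 were called, 17 higher and 22 lower, where 86.8% of all genes were called, 43.5% higher and 43.3% lower. At 2-fold or more, 4 members were higher and 13 lower, against 17.3% and 18.5% of all genes. The counts of higher members include KIF21B and KIF5C, which passed the filter only through A375M2 shRNA arrays. KIF6, under 4 in shNFYA, is among those lower. The median was -0.15 over the members and 0.00 over all genes.

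The mitotic kinesins were 7 lower, 0 higher and 4 not called, with a median of -0.96. KIF20A was at 4.58, 5.05 and 5.19 in shNFYA, a difference of -5.12 from GFP (SE 0.106, limma adjusted p = 5.09e-18). KIF4A was at 6.47, 6.38 and 6.45 and fell by 2.04 (1.32e-15). KIF15 was at 4.17, 4.48 and 4.09 against 6.23, 6.29 and 6.22, and fell by 2.0 (1.74e-12). These 3 genes had no array of 1 group within the range of the other. KIF18A, which damps chromosome oscillations at the metaphase plate, fell by 1.58, KIF2C by 1.33, KIF23 by 0.96 and KIF11 by 0.39. The genes not called were KIF14 (0.08), KIF20B (0.08), KIF22 (-0.04) and KIF18B (-0.15).

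CENPE was at 3.84, 3.82 and 4.58 in shNFYA, -3.22 from GFP (SE 0.162, limma adjusted p = 1.96e-12), and CENPF at 7.41, 7.53 and 7.24, -2.72 from GFP (3.87e-16). All shNFYA arrays lay below all GFP arrays for both genes. CENPE was under 4 on shNFYA replicates 1 and 2, so the size of its fall is uncertain. Of the inner kinetochore genes, 6 fell, 7 rose and 1 was not called. CENPN fell by 1.71, though its other probe sets differed by 0.31 and 0.12. CENPH fell by 1.14, CENPA by 0.99 (0.000186) and CENPU by 0.93. CENPM stood at 6.73, 6.50 and 6.75 in GFP and at 8.40, 8.46 and 8.51 in shNFYA and rose by 1.80 (6.16e-13), in the opposite direction to its partner CENPH in the same complex. CENPK rose by 0.86, CENPW by 0.79, CENPC by 0.76 and CENPQ by 0.71.

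Among transport kinesins 7 rose, 3 fell and KIF1C was not called, with a median of 0.18. KIF1B rose by 0.92 (limma adjusted p = 7.49e-13) and KIF3C by 0.81, while KIF13A fell by 1.0 and KIF21A by 0.76. KIF5B rose by 0.16, with overlapping arrays. KIF21B was at 6.20, 6.25 and 6.93, well above the 2.21 of GFP, and its difference was 4.26, or 2.46 with values under 4 set to 4. KIF5C, at 2.96, 4.54 and 4.02, was called at 1.63, but its difference was 0.19 (adjusted p = 0.481) with that floor. CENPV fell by 2.25 and KIF2A rose by 1.40. KIF6, under 4 in shNFYA, fell by 3.54, or by 2.24 with values under 4 set to 4.

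**Figure D2:**
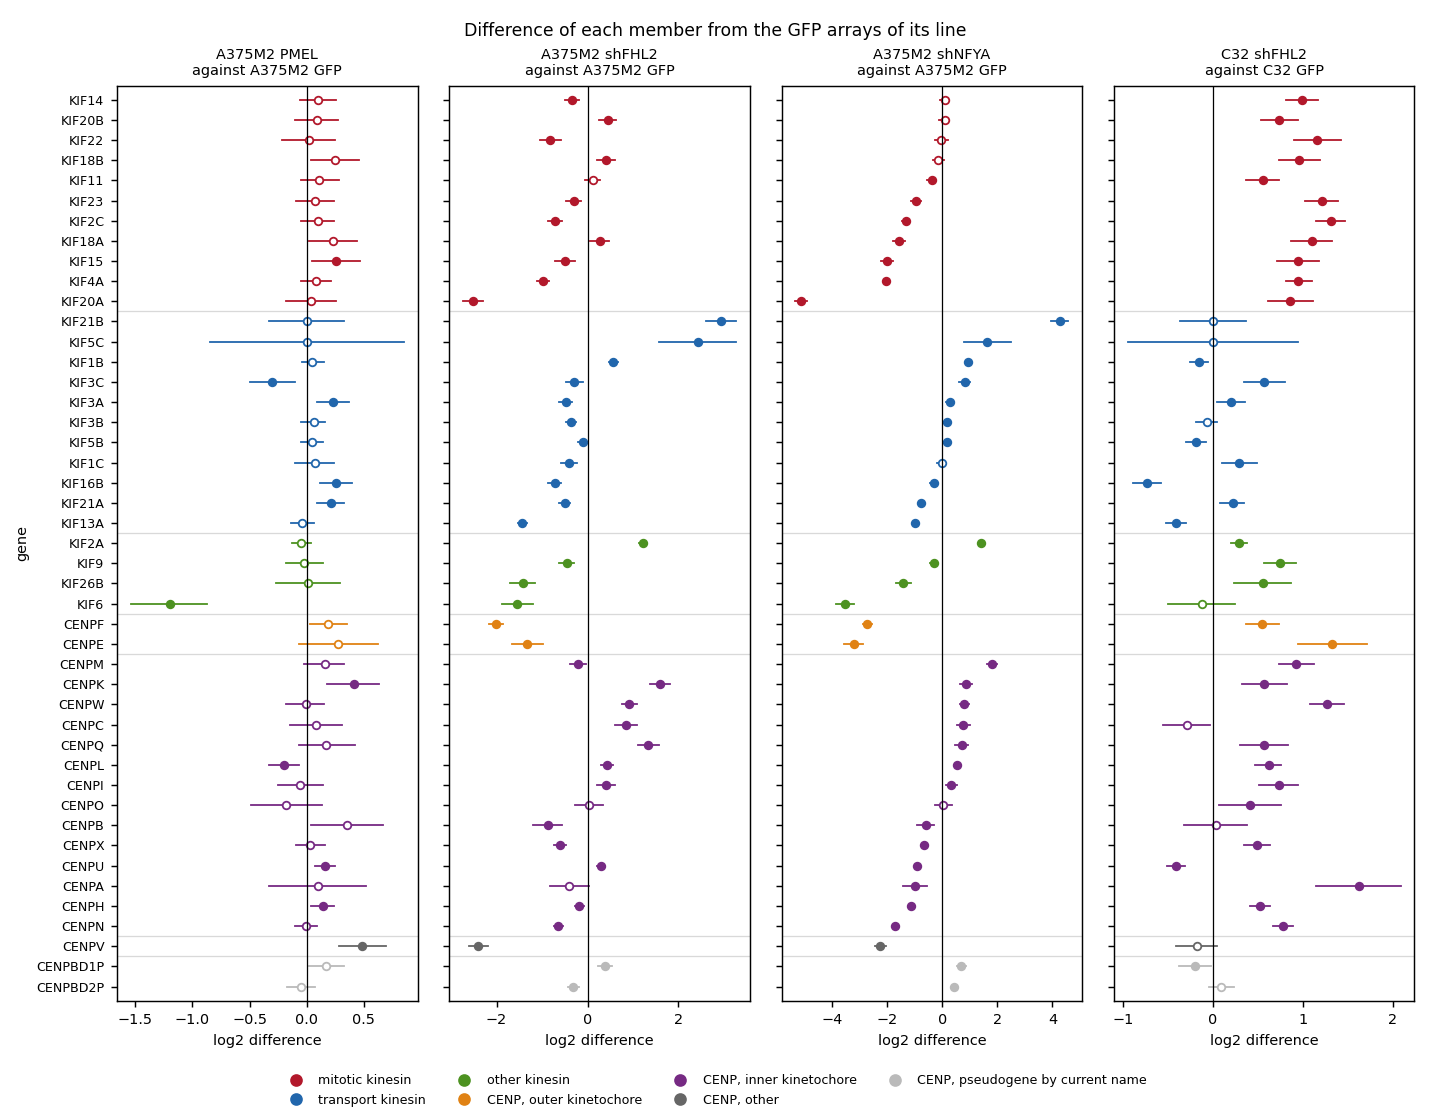
Log2 difference from the GFP cells of the same line for all 45 members in the 4 comparisons with GFP, ordered and coloured by role. Points are limma estimates, bars their 95% intervals, and filled points are called at an adjusted p under 0.05. All 11 mitotic kinesins lie above 0 in C32 shFHL2, while in A375M2 shNFYA 7 of the 11 are called below 0.

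Partner genes showed values of similar size. Of the passenger complex 3 of 4 fell, with BIRC5 lower by 2.20 and CDCA8 by 1.41. Of the KMN network 6 of 10 fell and 3 rose, with SPC25 lower by 3.45 and MIS12 higher by 1.70. Of the spindle and checkpoint list 11 of 15 fell and 2 rose, with NUSAP1 lower by 2.18 and TPX2 by 2.03. HJURP fell by 3.53, and the adaptors TRAK2 and TRAK1 fell by 2.56 and 1.95. In the proliferation list 3 rose and 5 fell, with MKI67 lower by 2.48 and CDC6 higher by 1.96. LYZ averaged 9.40, the 3 epithelial markers had a list mean of 7.19 to 7.46 and the fibroblast list one of 5.11 to 5.21, and their part was not tested.

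The share of genes lower with NFYA shRNA was set beside the CCAAT matches in their promoters. Over all genes tested with a matched promoter, 1733 of 3993 with CCAAT were called lower (43.4%), and 2134 of 5065 without it (42.1%). Of the members, 11 of 23 with CCAAT were lower and 8 higher, and 9 of 15 without it were lower and 4 higher. Among mitotic kinesins with CCAAT, 5 of 9 were lower (median -0.39), and both of those without it, KIF15 and KIF2C, were lower (median -1.66). In the printed sequences KIF20A and CENPF, which hold several CCAAT boxes, fell by 5.12 and 2.72, and CENPE and KIF15, which hold none there, fell by 3.22 and 2.0. Of the other printed members, each with a CCAAT box, KIF4A, KIF18A and KIF11 fell and KIF5B rose. The printed members were picked as those on which the results turn, and a link between CCAAT and the differences was not tested.

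The shRNA groups of A375M2 were also compared with each other, which asks how FHL2 and NFYA knockdown differ without the GFP arrays. Mitotic kinesins were mostly higher with FHL2 shRNA and transport kinesins mostly lower. Of the members 34 were called, 19 higher in shFHL2 and 15 lower, where 70.1% of all genes were called, 31.8% higher and 38.3% lower. At 2-fold or more, 11 were called, 8 higher and 3 lower, against 10.4% of all genes.

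Of the mitotic kinesins, 9 were higher in shFHL2 and 2 lower, with a median of 0.61, and none of the 11 had overlapping arrays. The same held for 10 of the 11 transport kinesins. As the share of all genes without overlap was not counted, these counts do not set the members apart from other genes. KIF20A was higher by 2.60 (SE 0.106, limma adjusted p = 5.45e-13), KIF18A by 1.85 (2.14e-11), KIF15 by 1.50 (4.08e-10) and KIF4A by 1.07 (7.38e-11). KIF18A was at 7.53, 7.48 and 7.30 in shFHL2 and at 5.60, 5.51 and 5.65 in shNFYA. KIF23, KIF2C and KIF11 were higher by 0.66, 0.61 and 0.50. KIF22 was lower by 0.78 (6e-06) and KIF14 by 0.42 (0.00011). KIF22 was at 6.16, 6.10 and 5.79 in shFHL2 and at 6.58, 6.88 and 6.92 in shNFYA, where GFP was at 6.76, 6.94 and 6.81.

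CENPE was higher in shFHL2 by 1.89 (limma adjusted p = 1.24e-08) and CENPF by 0.71 (2.47e-07). CENPU, the subunit that Polo-like kinase docks on, was higher by 1.22, CENPN by 1.07 and CENPH by 0.96, while CENPM was lower by 2.01 (7.49e-13). CENPA was higher by 0.59 (0.0142) with overlapping arrays, and that call was lost without shNFYA replicate 2 (0.45, 0.0764) or replicate 3 (0.46, 0.0749). Of the transport kinesins, 9 were lower in shFHL2, 1 higher and 1 not called. KIF21B was lower by 1.32, KIF3C by 1.09, KIF3A by 0.76 and KIF3B by 0.55, and KIF13A, KIF1B and KIF5B by 0.44, 0.35 and 0.27. On its probe set with the largest variance KIF1B differed by 0.02. KIF6 was higher by 1.99, or 0.69 with values under 4 set to 4, and KIF2A lower by 0.19. Partner lists of the spindle stood higher in shFHL2, with 13 of 15 spindle and checkpoint genes (TTK, a checkpoint kinase, by 1.34), 7 of 10 KMN genes (NUF2 by 0.97) and HJURP by 1.91. In the proliferation list 9 of 10 were higher and 0 lower, MKI67 by 1.51.

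In C32 cells FHL2 shRNA went with higher levels of every mitotic kinesin, of both outer kinetochore genes and of most inner kinetochore genes, and with mixed, smaller differences among transport kinesins. KIF2C rose 2.48-fold, CENPA 3.07-fold, CENPE 2.52-fold and CENPW 2.41-fold. Of the members 37 were called, 31 higher and 6 lower, where 62.6% of all genes were called, 32.2% higher and 30.3% lower. At 2-fold or more, 7 members were called, all higher and 0 lower, where 8.56% of all genes were, 3.52% higher and 5.04% lower. The median difference was 0.56 over the members and 0.00 over all genes.

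All 11 mitotic kinesins rose, from 0.56 to 1.31, with a median of 0.96 and no overlapping arrays. Arrays did not overlap either for 9 of 11 transport kinesins and 13 of 14 inner kinetochore genes. The share of all genes without overlap was not counted, so these counts do not set the members apart from other genes. KIF2C was at 9.89 and 9.91 in GFP and at 11.15, 11.28 and 11.21 in shFHL2 (difference 1.31, SE 0.0768, limma adjusted p = 1.08e-10). KIF23 was at 9.40 and 9.47 against 10.62, 10.61 and 10.70 (1.21, 1.87e-09). KIF22 was at 6.84 and 6.63 against 7.99, 7.87 and 7.84 (1.16, 2.21e-07). Every shFHL2 array lay above every GFP array in these genes. KIF18A rose by 1.10, KIF14 by 0.99, KIF18B by 0.96, KIF4A and KIF15 by 0.95, KIF20A by 0.86, KIF20B by 0.74 and KIF11 by 0.56. KIF20A stood at 10.15 and 10.12 in GFP and at 10.96, 10.98 and 11.05 in shFHL2 (SE 0.118, 5.6e-06).

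CENPE stood at 8.14 and 8.23 in GFP and at 9.55, 9.51 and 9.49 in shFHL2 (1.33, SE 0.182, limma adjusted p = 4.95e-06). CENPF rose by 0.55 (2.06e-05), and its other probe set differed by 0.42 (0.0974). Of the inner kinetochore genes 11 rose, 1 fell and 2 were not called. CENPA was at 7.23 and 6.33 in GFP, further apart than most pairs, and at 8.44, 8.43 and 8.32 in shFHL2 (1.62, SE 0.225, 6.05e-06). CENPW was at 10.68 and 10.71 against 11.99, 11.94 and 11.96 (1.27, 9.53e-10). CENPM rose by 0.93, CENPN by 0.78, CENPI by 0.73, CENPL by 0.62, and CENPK and CENPQ by 0.57. The exception was CENPU, which fell from 12.42 and 12.41 to between 11.98 and 12.04 (-0.41, 5.98e-07). CENPC (-0.29, 0.0529) and CENPB (0.03, 0.913) were not called.

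Transport kinesins split into 4 higher, 4 lower and 3 not called, with a median of -0.00. KIF16B fell by 0.73 (limma adjusted p = 1.27e-07), with its other probe set at 0.42 (0.0554), and KIF13A by 0.41 (2.42e-06). KIF3C rose by 0.57. KIF13A was at 11.81 and 11.86 in GFP and at 11.46, 11.40 and 11.41 in shFHL2, without overlap. The calls of KIF1C (0.29), KIF21A (0.22), KIF5B (-0.19) and KIF1B (-0.16) were lost without C32 GFP replicate 1, which left 1 GFP array. KIF5B had probe sets called in both directions, and KIF21A differed by -0.02 on the mean of its probe sets. KIF21B and KIF5C were at 2.20 on every C32 array. KIF9, a ciliary kinesin, rose by 0.75 and KIF2A by 0.29. KIF26B was higher by 0.56, a value that became 0.20 (0.162) without GFP replicate 1 and 0.91 without replicate 2. CENPV, under 4 in both groups, differed by -0.18 (0.153).

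The partner lists rose as well: 4 of 4 passenger complex genes (CDCA8 by 1.35, AURKB by 1.20), 9 of 10 KMN genes (NUF2 by 1.17, ZWINT by 1.18), 14 of 15 spindle and checkpoint genes (SKA3 by 1.86) and 5 of 5 CENP-A deposition genes (OIP5 by 1.18, HJURP by 1.04), with 0 lower in these lists. KIFC1 rose by 1.39. Of 8 cargo adaptors 2 rose and 2 fell, and of 12 dynein and dynactin genes 1 rose and 4 fell. In the proliferation list 9 of 10 rose and 0 fell, with MKI67 higher by 1.30, and its mean was 11.20 to 11.25 in GFP and 11.79 to 11.81 in shFHL2. The 3 epithelial markers were under 4 on every C32 array. The fibroblast list had a mean of 6.26 to 6.44 in GFP and 6.37 to 6.43 in shFHL2, with LUM and DCN under 4. LYZ rose by 1.98 and PTPRC went from 8.63 to 7.80, and the mean of the 2 leukocyte genes was 5.66 to 6.67 in GFP and 6.34 to 7.07 in shFHL2. Their part was not tested.

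The difference between the lines in the response to FHL2 shRNA was tested as an interaction. All 11 mitotic kinesins and both outer kinetochore genes had a more positive response in C32. Of the members 41 were called, 32 more positive in C32 and 9 less, where 80.2% of all genes were called, 42.1% more positive and 38.1% less. At 2-fold or more, 18 were more positive and 4 less, against 17.2% and 16.7% of all genes. The less positive include KIF21B and KIF5C, which passed the filter only through A375M2 shRNA arrays. The more positive include CENPV, KIF6 and KIF26B, each of which lay under 4 in both groups of a line.

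KIF20A differed most, by 3.38 (SE 0.159, limma adjusted p = 1.77e-12): it fell by 2.52 in A375M2 and rose by 0.86 in C32. CENPE differed by 2.66 (1.73e-08) and CENPF by 2.57 (8.8e-13), each falling in A375M2 and rising in C32. KIF2C differed by 2.03, KIF22 by 1.98, KIF4A by 1.93, KIF23 by 1.51, KIF15 by 1.44 and KIF14 by 1.33, all with opposite directions in the 2 lines. KIF18A, KIF18B and KIF20B rose in both lines and differed by 0.83, 0.56 and 0.30. KIF11 differed by 0.44 (0.00264). The median over the mitotic kinesins was 1.44.

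Inner kinetochore genes had 8 more positive and 4 less positive responses in C32. CENPA differed by 2.02 (limma adjusted p = 8.6e-06), CENPM by 1.14 and CENPX by 1.09. CENPN differed by 1.42, but by -0.22 (0.146) on its probe set with the largest variance. CENPC, CENPK, CENPQ and CENPU went the other way, by -1.13, -1.03, -0.77 and -0.70. Of these CENPK and CENPQ rose in both lines, and CENPU rose in A375M2 and fell in C32. Among transport kinesins KIF13A fell in both lines, and less in C32 (1.03, 3.1e-10). KIF16B, with -0.72 and -0.73, showed no called difference (-0.02, 95% interval -0.23 to 0.19). KIF21B (-2.93) and KIF5C (-2.42) differed with C32 at 2.20 in both groups, and had -1.14 and -0.86 with values under 4 set to 4. KIF2A, which also acts at spindle poles but is not in the count of mitotic kinesins, differed by -0.92, against their direction. KIF9 differed by 1.21. CENPV differed by 2.22, or 2.40 with values under 4 set to 4. It lay under 4 in both C32 groups, so a fall there could not be measured.

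**Figure D3:**
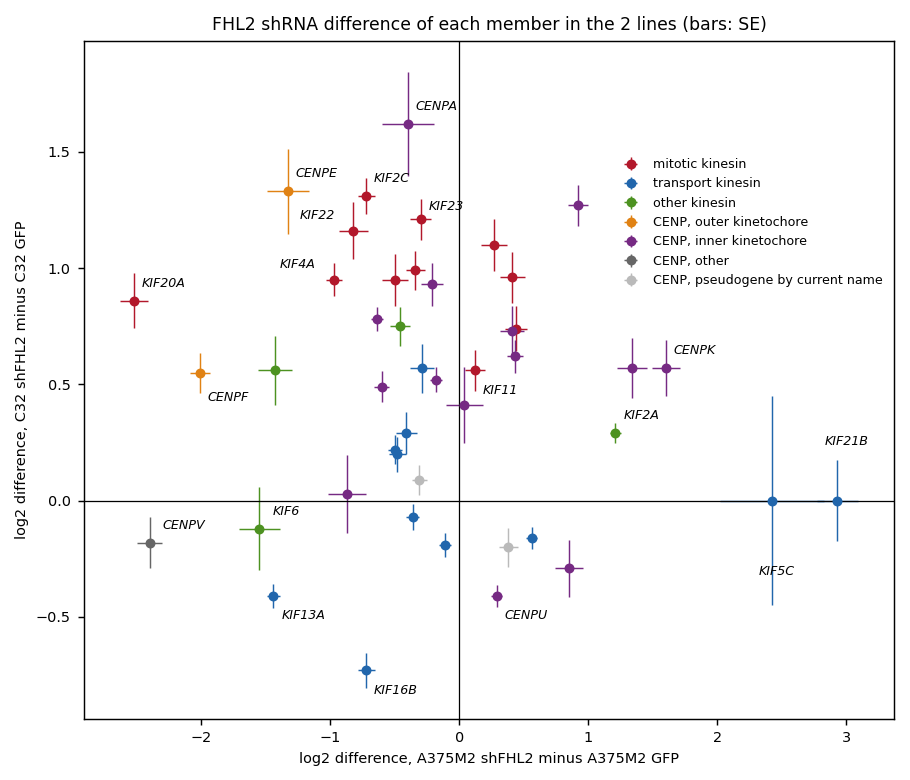
Log2 difference of shFHL2 from GFP in A375M2 (horizontal) and in C32 (vertical) for the 45 members, coloured by role, with standard error bars from limma. The mitotic kinesins lie above 0 on the vertical axis, from 0.56 to 1.31, and spread from -2.52 to 0.44 on the horizontal axis.

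The GFP cells of the lines differed before any shRNA. C32 stood higher than A375M2 in most mitotic kinesins and inner kinetochore genes. Of the members 39 were called, 29 higher in C32 and 10 lower, where 85.9% of all genes were called, 38.7% higher and 47.2% lower. At 2-fold or more, 21 members were called, 16 higher and 5 lower, against 43.1% of all genes, 18.3% higher and 24.8% lower. The median was 0.58 over the members and -0.10 over all genes.

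Of the mitotic kinesins 8 were higher in C32 and 3 were not called. KIF14 was at 8.92, 9.15 and 8.99 in A375M2 and at 11.41 and 11.48 in C32 (2.43, SE 0.0856, limma adjusted p = 9.34e-15). KIF11 was at 8.22, 8.48 and 8.28 against 10.34 and 10.28 (1.98, 2.9e-13). KIF18B and KIF23 were higher by 1.80 and 1.79. The 3 genes not called, with overlapping arrays, were KIF20A (0.07, adjusted p = 0.574), KIF2C (0.05, 0.563) and KIF22 (-0.10, 0.461). All 8 mitotic kinesins with TTTGAA in a promoter window were higher in C32, and these 3 were the ones without it. This was seen after the values were known and was not tested. Of these 3, KIF20A and KIF2C hold the variant TTTAAA. Over all genes tested with a matched promoter, 46.8% of those with TTTGAA and 37.5% of those without it were higher in C32.

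CENPF and CENPE were higher in C32 by 0.72 and 0.88. Of the inner kinetochore genes 12 were higher and 2 lower. CENPW was higher by 2.89 (limma adjusted p = 1.14e-15), CENPM by 2.56 and CENPK by 1.97. CENPO was higher by 2.88 and CENPI by 2.85, both under 4 in A375M2 GFP. With values under 4 set to 4 these were 2.51 and 2.58. CENPO and KIF26B reached 4 on C32 arrays alone, so they passed the filter through the line where they were high. The counts of members higher in C32 include both. Those of members lower in C32 include CENPV and KIF6, which reached 4 on A375M2 arrays alone. CENPB was lower by 1.75 and CENPN by 0.34. CENPA was higher by 0.91 (0.00108), a difference of 0.46 (0.0712) without C32 GFP replicate 1 and of 1.37 without replicate 2. Transport kinesins were 6 higher, 3 lower and 2 not called, with KIF3A higher by 0.94, KIF13A by 0.42 and KIF1B by 0.22, and KIF3B lower by 1.27 and KIF5B by 0.40. For KIF1B, KIF3C and CENPN, probe sets were called in both directions. CENPV stood at 8.83, 8.67 and 8.65 in A375M2 and at 3.71 and 3.79 in C32, a difference of -4.97 (SE 0.109, 1.05e-17). KIF6 was lower in C32 by 3.70, at 2.32 and 2.75, a difference of -2.24 with values under 4 set to 4. KIF26B was higher by 2.31, or 1.57 with values under 4 set to 4. All 10 proliferation genes were higher in C32, MKI67 by 2.39.

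**Figure D4:**
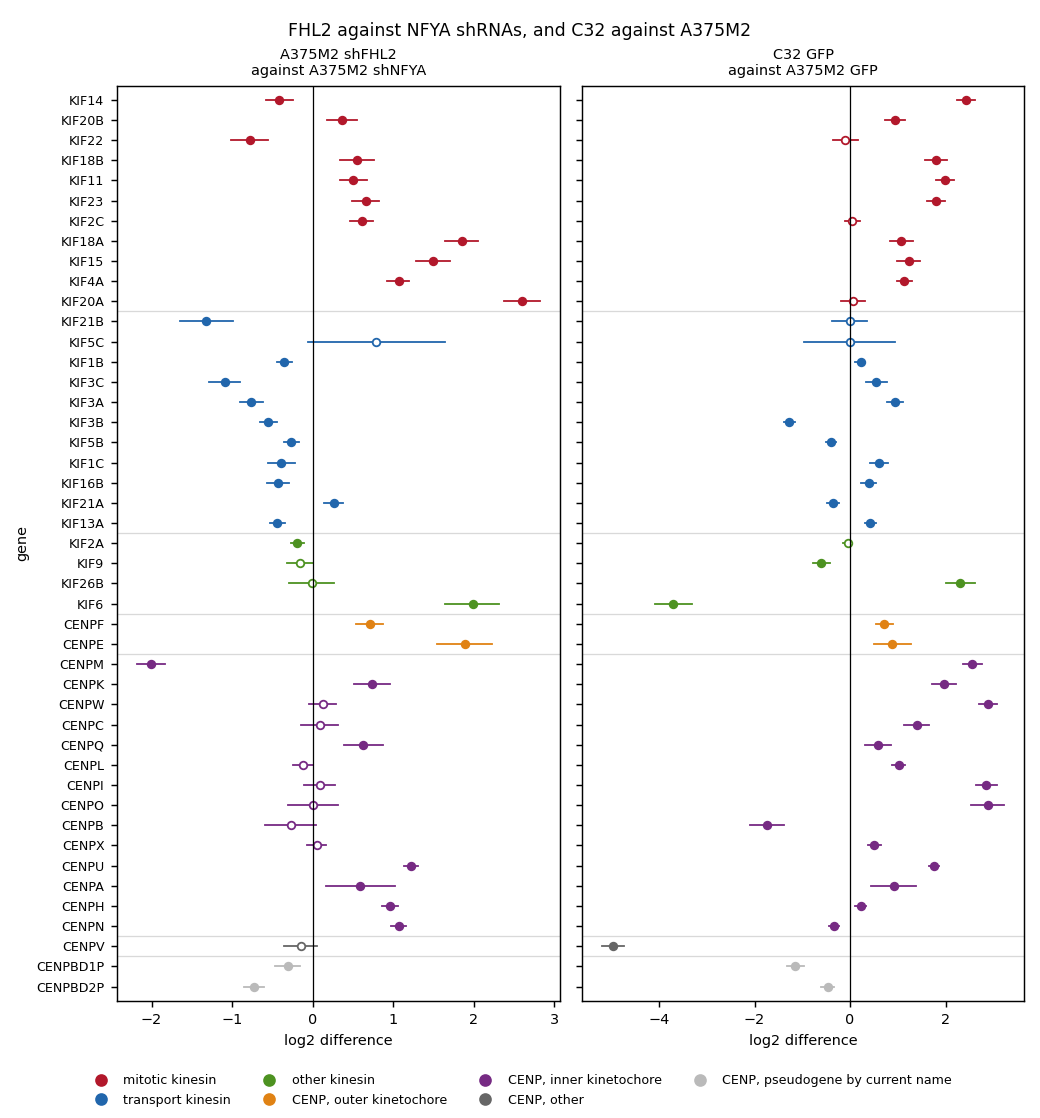
Log2 difference of the 45 members between the shRNA groups of A375M2 (shFHL2 minus shNFYA) and between the GFP cells of the lines (C32 minus A375M2), coloured by role, with 95% intervals from limma and filled points where called. In the first, 9 of 11 mitotic kinesins lie above 0 and 9 of 11 transport kinesins below it. In the second, 8 mitotic kinesins are called above 0 and CENPV is lowest, at -4.97.

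In PMEL cells few members were called against GFP. Of the 45, 11 were called, 8 higher and 3 lower, where 39.9% of all genes were called, 22.1% higher and 17.8% lower, and without the replicate 3 arrays of both groups 5 were called. Among mitotic kinesins 1 of 11 was called: KIF15, higher by 0.26 (limma adjusted p = 0.0467), and this was lost without these arrays (0.23, 0.209) and in 10 of the 17 fits that left out 1 array (adjusted p from 0.0501 to 0.136). KIF20A was at 10.08, 10.06 and 10.16 in PMEL cells, overlapping GFP, with a difference of 0.04 (95% interval -0.18 to 0.26). KIF11 and KIF2C differed by 0.11 and 0.10, KIF23 by 0.07, CENPE by 0.27 (adjusted p = 0.2), CENPF by 0.19 (0.0573, and 0.035 to 0.0451 in the 4 of 17 fits without 1 array that called it) and CENPA by 0.10. KIF13A differed by -0.04, KIF1B by 0.05 and KIF5B by 0.05, none of them called. KIF13A differed by 0.40 and KIF5B by -0.23 on the probe set with the largest variance.

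The member with the largest difference was KIF6, a kinesin linked to cilia, at 5.99, 6.34 and 6.37 in GFP and at 4.96, 5.25 and 4.90 in PMEL cells. It fell by 1.20 (SE 0.16, limma adjusted p = 1.34e-05) with no overlap, and was the 1 member past 2-fold, with 0 higher, against 2.14% of all genes, 0.521% higher and 1.62% lower. CENPV rose from 8.83, 8.67 and 8.65 to 9.25, 9.08 and 9.26 (0.48, 0.000799). CENPK rose by 0.41, or 0.24 (0.147) without the replicate 3 arrays. KIF16B, KIF3A and KIF21A rose by 0.26, 0.23 and 0.21 and KIF3C fell by 0.30, and of these the calls of KIF16B (0.20), KIF3A (0.21) and KIF3C (-0.33) were lost without the replicate 3 arrays. That of KIF3A was also lost without GFP replicate 1 (0.18, adjusted p = 0.0645), and that of KIF3C without GFP replicate 2 (-0.25, 0.0715) or PMEL replicate 2 (-0.24, 0.0866). KIF16B differed by -0.21 on its probe set with the largest variance.

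Markers moved in this comparison too. Of 10 proliferation genes 6 rose and 1 fell, with CDC6 higher by 0.37 and MCM3 by 0.35, and the mean of the list was 9.43 to 9.49 against 9.30 to 9.37 in GFP. Of 5 fibroblast genes tested 0 rose and 4 fell, with LUM lower by 2.03 (difference -2.03). The mean of all 6 measured was 6.02 to 6.07 in PMEL cells and 6.82 to 6.87 in GFP, with COL1A2 and DCN under 4 in both. The 3 epithelial and 2 leukocyte genes were not called, and LYZ and PTPRC were under 4. Of the 8 lineage markers 3 rose, PMEL itself among them, and 2 fell. Their part in the members' differences was not tested.

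Read over all 6 groups, C32 shFHL2 had the highest mean for 28 of the 45 members, among them all 11 mitotic kinesins, both outer kinetochore genes and 10 of 14 inner kinetochore genes. A375M2 shNFYA had the lowest mean for 16 members, among them 8 of 11 mitotic kinesins and both outer kinetochore genes. Transport kinesins had no such order: shNFYA was highest for 4 of 11, C32 shFHL2 for 3 and C32 GFP for 2, and shFHL2 was lowest in A375M2 and in C32 for 4 each. For KIF20A the order was C32 shFHL2, C32 GFP, A375M2 PMEL, A375M2 GFP, shFHL2 and shNFYA, and the middle 3 had overlapping arrays. The 3 A375M2 comparisons with GFP share the same GFP arrays, so their values are not independent of each other.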

How the data were processed

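RNA was measured on 18 Affymetrix 3' arrays, 3 in each of 6 groups. The deposited values are log2 signals per probe set, made by the authors with GCRMA per the submitters' processing notes (version: not given in the sources used here). Annotation of the platform gave 1 symbol to 20264 of 23416 probe sets, several to 995 and none to 2099, besides 58 control probe sets, and 20254 were named through their Entrez identifier. Every value column matched a sample (0 did not). A gene was represented by the probe set with the highest mean over all arrays and kept if at least 3 arrays reached log2 4, which left 10940 genes.

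Differences were fitted in limma 3.58.1 (R 4.3.3) with lmFit and eBayes with a trend, on 17 arrays in 6 groups (11 residual degrees of freedom), with p-values adjusted by Benjamini-Hochberg over all genes within each comparison and called under 0.05. The number of arrays limits the precision: the median standard error was 0.0711 within A375M2, 0.0795 within C32 and 0.107 for the difference between lines. The linked replicate 3 arrays of A375M2 GFP and PMEL were kept and counted as independent. The residual degrees of freedom are therefore too high, and standard errors and adjusted p may be too small. The fit was tested on simulated data, with no outcome reported here. Motifs were counted in Python 3.11.15 and figures drawn with matplotlib 3.10.9.

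Members, role lists, partner and marker lists were chosen with earlier results of these data known, and the partner and marker lists are no independent evidence. Named with values were the targeted genes, the called mitotic kinesins, transport kinesins and CENP genes with the largest differences in each comparison, and in every comparison KIF11, KIF20A, KIF2C, KIF23, KIF5B, KIF1B, KIF13A, CENPA, CENPE and CENPF. Other members named with a value were chosen after their values were seen. From each partner list up to 3 genes were eligible. Alternatives tried were the scaling, the filter, a floor, the probe set of a gene, array weights, the variance model, the threshold, the arrays in the fit and the replicate number as a block.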

Additional observations from a re-analysis of the deposited data

Results flagged for a closer look

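The response to FHL2 shRNA differed between the lines, by the interaction term in limma (C32 minus A375M2, log2 scale), for 41 of the 45 members. Values follow for the 18 of them that the naming rule covers in that comparison, namely the called members with the largest differences in each role and the genes named in every comparison. The response was more positive in C32 for KIF20A (3.38), CENPE (2.66), CENPF (2.57), CENPV (2.22), KIF2C (2.03), CENPA (2.02), KIF26B (1.99), KIF22 (1.98), KIF4A (1.93), KIF23 (1.51), CENPN (1.42), KIF6 (1.42), KIF13A (1.03), KIF3C (0.86) and KIF11 (0.44). It was less positive in C32 for KIF1B (-0.72), KIF5C (-2.42) and KIF21B (-2.93). With values under 4 set to 4, CENPV gave 2.40, KIF26B 0.56, KIF6 1.55, KIF5C -0.86 and KIF21B -1.14. CENPV, KIF6, KIF5C and KIF21B lay under 4 in both C32 groups, so their values rest on the A375M2 difference. KIF26B lay under 4 in both A375M2 groups. CENPN turned to -0.22 on its probe set with the largest variance. Of all genes tested, 80.2% were called for this difference.

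Probe sets that the annotation gives to several genes took no part in the comparisons, and a pair of them differed in C32 shFHL2 against GFP. A probe set assigned to CENPA together with another gene was higher by 1.23 (limma adjusted p = 2.6e-11). In A375M2 it was lower by 0.97 with FHL2 shRNA (difference -0.97) and by 1.89 with NFYA shRNA (difference -1.89). A probe set assigned to CENPS and a read-through transcript was higher by 1.07 in C32 (9.62e-11). Which of its genes each signal came from was not tested.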

How the results depend on the processing

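Under all alternatives, 4601 of 4709 values of named members kept their direction and side of the threshold, 72 lost and 19 gained their call, and 17 turned. Requiring 2-fold left 12 members called in A375M2 shFHL2 against GFP, 1 in PMEL, 17 in shNFYA, 11 in shFHL2 against shNFYA, 7 in C32 shFHL2, 21 between the GFP lines and 22 in the interaction. For PMEL, 6 members passed an adjusted p under 0.01, and 5 were called without the replicate 3 arrays of A375M2 GFP and PMEL. Leaving out 1 array at a time gave, in the same order, 39 to 43, 8 to 15, 39 to 40, 34 to 35, 30 to 38, 38 to 39 and 39 to 42 members. The lowest C32 count came without C32 GFP replicate 1, where the lone GFP array is assumed to vary like the other groups. Deviations of same-numbered arrays gave r from -1.0 to 0.08, with 0 of 40 pairs over 0.1. The value of -1.0 belongs to the replicate 3 arrays of A375M2 GFP and PMEL, which are linked. In the other same-numbered pairs no shared direction over 0.1 was seen, and the main fit used no pairing. With the replicate block 42, 10, 39, 34, 36, 39 and 39 members were called. With the replicate 3 arrays of GFP and PMEL as a set of their own, chosen after seeing the data, the counts were 41, 10, 39, 34, 36, 39 and 39. Directions turned with the choice of probe set. Taking the probe set with the largest variance gave CENPN 0.12 in shNFYA and -0.22 in the interaction, KIF13A 0.40, KIF16B -0.21 and KIF5B -0.23 in PMEL, KIF16B 1.49 and KIF5B 0.14 in A375M2 shFHL2, KIF16B 0.42 and KIF5B 0.10 in C32 shFHL2, KIF1B 0.02 in shFHL2 against shNFYA and KIF1B -0.86 between the lines. The mean of a gene's probe sets gave KIF16B 0.39 and KIF5B 0.02 in A375M2 shFHL2, KIF1B -0.24 and KIF3C -0.25 between the lines, and KIF21A -0.02 and KIF5B 0.00 in C32 shFHL2. These follow from probe sets of a gene that differ in sign, and the cause of that was not tested. Of 22 members with several probe sets, the signs were alike for 16 in A375M2 shFHL2, 15 in shNFYA and 16 in C32 shFHL2. Levels under log2 4 have no reliable order, which limits KIF21B, KIF5C, KIF6, KIF26B, CENPV, CENPI and CENPO, and CENPE in A375M2 shNFYA.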
